A study of Mus musculus with 3 samples.

Results

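The genes described here are 7 genes of major histocompatibility complex (MHC) class II antigen presentation, chosen by name from the 32285 genes measured in spatial transcriptomes of healing mouse skin. They are *H2-Aa*, *H2-Ab1* and *H2-Eb1*, which encode chains of the class II molecules, *Cd74*, the invariant chain, *H2-DMa* and *H2-DMb1*, the chains of the peptide-exchange factor H2-DM, and *Ciita*, the class II transactivator. Visium slides, whose spots carry positional barcodes and capture polyadenylated RNA, were used on wounds of wild-type C57BL/6J mice at Day 3, Day 7 and Day 14 post injury. Each day was represented by 1 section of frozen tissue from a full-thickness excisional wound of the dorsal skin of an adult male mouse, with no further treatment and no section of intact skin analysed here. With 1 section per day, time, animal, section and slide cannot be told apart, and no test between days was made.

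Class II molecules carry peptides from endocytosed proteins to the surface, where CD4+ T cells read them. The alpha and beta chains pair in the endoplasmic reticulum with the invariant chain, which fills the groove and guides the complex to endosomes. Cathepsins then cut the invariant chain down to a short fragment, and H2-DM exchanges that fragment for antigen peptides. Transcription of the whole group depends on CIITA, which interferon gamma induces, bound to factors on the X and Y boxes of the promoters. Dendritic cells, B cells, macrophages and, in skin, the Langerhans cells of the epidermis are known to carry class II. C57BL/6 mice make the A molecule (*H2-Aa* with *H2-Ab1*) but lack a functional E alpha chain, so that *H2-Eb1* is transcribed without its partner.

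Of the members, 5 lie on chromosome 17 within 197 kb of the MHC (GRCm38, GENCODE M21). *H2-DMa* lies at 34119541 to 34139101 on the plus strand, *H2-DMb1* at 34153072 to 34160230 on the plus strand and *H2-Ab1* at 34257689 to 34269419 on the plus strand. *H2-Aa* lies at 34282744 to 34287823 on the minus strand and *H2-Eb1* at 34305867 to 34316674 on the plus strand. *Ciita* lies on chromosome 16 (10480059 to 10528418, plus strand). All 7 members are protein-coding genes.

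The promoters are shown because the members form 1 regulatory group and X and Y boxes are its known mark. RefSeq promoter sequences (GRCm38.p6) were matched for 4 of the 7 members, namely *H2-DMa*, *H2-DMb1*, *H2-Aa* and *H2-Eb1*. In the 250 bases before the start, the letters CTNGNAACT (an X box-like motif, N being any base) stood before ATTGG (a Y box, the inverted CCAAT) in *H2-Aa*, *H2-Eb1* and *H2-DMb1*. The first motif was read from these same promoters, so that its presence in them is no finding. The windows of *H2-Aa* (chr17:34287865-34287909, minus strand) and *H2-Eb1* (chr17:34305771-34305814, plus strand) read as follows, 5′ to 3′, with both motifs in capitals.
H2-Aa: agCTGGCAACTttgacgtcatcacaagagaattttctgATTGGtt
H2-Eb1: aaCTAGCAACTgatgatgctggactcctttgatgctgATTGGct
The motifs were 27 bases apart in *H2-Aa*, 26 in *H2-Eb1* and 27 in *H2-DMb1*, and they began 84, 94 and 97 bases before the RefSeq start. The *H2-DMb1* window (chr17:34153092-34153136, plus strand) lies in an annotated GENCODE exon, after the GENCODE start at 34153072, and is not printed. On either strand, CTNGNAACT was found in 3.47% of all 32851 promoters, ATTGG in 33.8%, and the pair in this order at most 30 bases apart in 0.107%. Neither of the 2 *H2-DMa* promoters held the pair. Other class II and class I genes were looked up as well. CTNGNAACT was in no promoter of *H2-DMb2*, *H2-Oa*, *H2-Ob*, *H2-Eb2*, *H2-K1*, *H2-D1* or *B2m*, so these letters are no general mark of such genes.

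The sections held 664, 549 and 697 spots marked as tissue on Day 3, Day 7 and Day 14. Those spots held 1772259, 4442962 and 4611723 unique molecular identifiers (UMIs, each counting 1 captured molecule), with medians of 1513, 6687 and 4827 per spot. The Day 3 section was the shallowest, and 144 of its marked spots were below 500 UMIs. The unmarked spots were not empty. A total of 259, 146 and 164 of them on Day 3, Day 7 and Day 14 held at least as many UMIs as the median marked spot of their section, so that spots outside the marked tissue are a comparison and not a blank. The slides share all 4992 spot barcodes by design.

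The first question was how the class II genes differed between the days of healing. The sum of the 7 genes was highest on Day 3, lower on Day 7 and close to the Day 7 level on Day 14, and most of the difference came from *Cd74*. Under tissue the Day 3 section held 3660 CPM of the sum, CPM being UMIs per 1000000 (95% interval 3571 to 3750). Day 7 held 2245 (2201 to 2289) and Day 14 held 2433 (2389 to 2479). These rest on 6486, 9973 and 11222 UMIs, and here as below the intervals cover counting error only. Relative to Day 3, the log2 ratio was -0.71 for Day 7 (-0.75 to -0.66) and -0.59 for Day 14 (-0.63 to -0.54). Without *Cd74* these ratios were -0.41 and -0.26. The Day 14 over Day 7 ratio of 0.12 (0.08 to 0.16) was no larger than the 0.12 of the median gene and became -0.01 with TMM or DESeq2 size factors. With every spot weighted equally, the ratios to Day 3 became -0.23 for Day 7 and -0.08 for Day 14, so that the Day 3 excess was smaller in spot means than in pooled UMIs. Equal weights include the spots below 500 UMIs, of which Day 3 had 144, Day 7 had 10 and Day 14 had 8. Their part in the spot means was not tested. In bulk sums over spots, fewer cells of a type and less RNA per cell cannot be told apart.

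**Figure D1:**
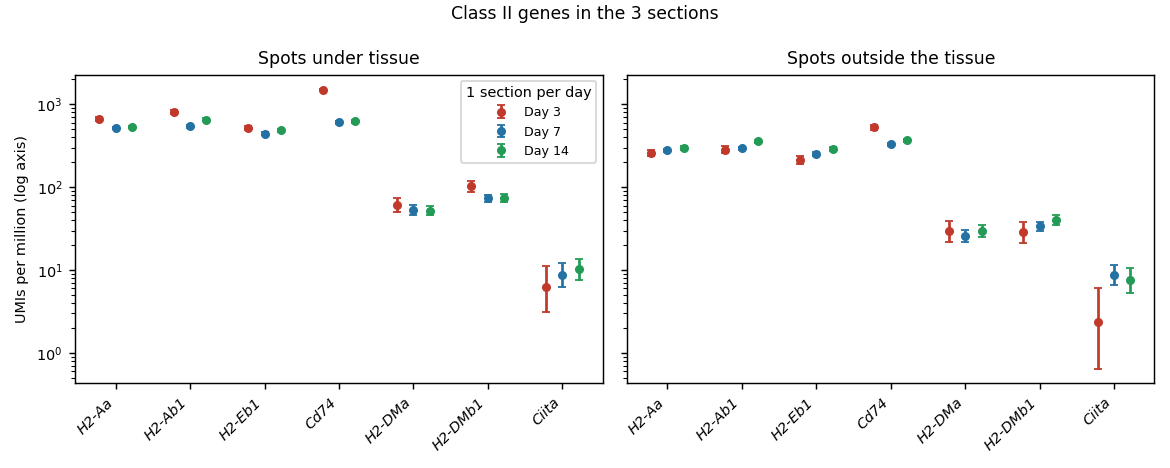
CPM (log axis) of each class II gene in the marked spots (left) and the other spots (right) of the 3 sections, 1 section per day, with points for the pooled value and bars for the exact Poisson 95% interval. *Cd74* on Day 3, at 1492 CPM under tissue, is the value that stands apart from its other days.

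The chain genes, which encode the antigen-holding part of the molecule, differed between days by less than 1.5-fold. *H2-Aa* measured 671, 519 and 531 CPM on Day 3, Day 7 and Day 14, with a log2 ratio of Day 7 over Day 3 of -0.37 (-0.47 to -0.27) and of Day 14 over Day 7 of 0.04 (-0.05 to 0.12). Its partner *H2-Ab1* was at 808, 543 and 652 CPM on the same days, with ratios of -0.57 (-0.67 to -0.48) and 0.27 (0.19 to 0.34). Both were highest on Day 3, and *H2-Ab1* was the member with the largest ratio of Day 14 over Day 7 among those whose interval excluded 0. *H2-Eb1* was at 518, 440 and 489 CPM, with ratios of -0.24 (-0.35 to -0.12) and 0.15 (0.06 to 0.24). Its Day 14 level differed from that of Day 3 by less than counting error, with a log2 ratio of -0.08 (-0.20 to 0.03). The 2 chains of the A molecule kept close to each other, since *H2-Aa* gave 0.831 UMIs per UMI of *H2-Ab1* (0.769 to 0.898) in the Day 3 section, 0.956 (0.902 to 1.01) in that of Day 7 and 0.815 (0.772 to 0.859) in that of Day 14.

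*Cd74*, which lies on chromosome 18 (GRCm38, 60803848 to 60812652, plus strand) and whose product occupies the groove of new class II molecules, showed the largest difference of any member with 50 or more UMIs in each section. Its level was 1492 CPM in the Day 3 section (1436 to 1550), and the later sections held 608 (586 to 632) and 624 CPM (601 to 647). From Day 3 to Day 7 the log2 ratio was -1.29 (-1.37 to -1.22), whereas from Day 7 to Day 14 it was 0.04 (-0.04 to 0.11). Day 3 was the only section in which *Cd74* stood clearly apart from its level in the others. Among the 7 members, *Cd74* alone was past 1.5-fold lower on Day 7 than on Day 3, where 15.5% of the 10541 genes with at least 50 UMIs over both sections were past 1.5-fold lower and 19.5% past 1.5-fold higher. No member was past 1.5-fold between Day 7 and Day 14, where 23.4% of genes were higher and 15.3% lower.

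The H2-DM genes, whose product catalyses peptide exchange, were measured by fewer UMIs. *H2-DMa* measured 61.5 CPM (50.5 to 74.2), 53.1 CPM (46.6 to 60.3) and 52.3 CPM (45.9 to 59.3) in the order of the days, and its differences between days were not detectable at this depth. *H2-DMb1* was at 102, 73.1 and 74.2 CPM, with a log2 ratio of Day 7 over Day 3 of -0.48 (-0.75 to -0.21). *H2-DMb1* was thus higher on Day 3, like the chain genes. It has a close paralog, *H2-DMb2*, at 19.7, 13.3 and 11.7 CPM, and how the counting split reads between the paralogs was not tested. *Ciita*, the switch of the pathway, was captured by 11, 39 and 47 UMIs in the same order, which is 6.21 CPM (3.10 to 11.1), 8.78 CPM (6.24 to 12.0) and 10.2 CPM (7.49 to 13.6). Its lowest value was that of Day 3, where *Cd74* was highest, but under tissue each of its ratios between days had an interval that held 0. Outside the marked tissue, where it had 4, 57 and 36 UMIs, the log2 ratio to Day 3 was 1.91 for Day 7 (0.48 to 3.83) and 1.70 for Day 14 (0.22 to 3.65). Between Day 14 and Day 3, *Ciita* counted as past 1.5-fold higher and *Cd74* as past 1.5-fold lower, against 28.4% and 14.3% of genes. The *Ciita* log2 ratio of 0.72 ran from -0.25 to 1.81, so that a difference in *Ciita* under tissue was not detectable at this depth.

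*Cd74* was then set against the chain genes, since this ratio does not depend on the total per section. Per UMI of *H2-Aa*, *H2-Ab1* and *H2-Eb1* together the Day 3 section held 0.747 UMIs of *Cd74* (0.710 to 0.786), that of Day 7 held 0.405 (0.387 to 0.424) and that of Day 14 held 0.373 (0.357 to 0.389). The spots outside the marked tissue gave 0.697, 0.396 and 0.390. The Day 3 excess was therefore seen in both sets of spots. It was also seen in the spots richest in each marker list. These sets are drawn from the same spots and overlap, so they are not separate observations. Among the 20% of spots richest in each of the 13 marker lists used below, the ratio ran from 0.663 in neutrophil-rich to 0.945 in hair and sebaceous gland-rich spots on Day 3, from 0.344 to 0.507 on Day 7 and from 0.330 to 0.532 on Day 14, with every Day 3 value above every value of the other days. In the muscle-rich spots, where Day 3 had 63 *Cd74* UMIs, the intervals overlapped. At more than 10 spot pitches (1 pitch being the distance between neighbouring spots) from the marked tissue, the Day 3 value was lower, at 0.464, against 0.412 and 0.422 on Day 7 and Day 14.

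**Figure D2:**
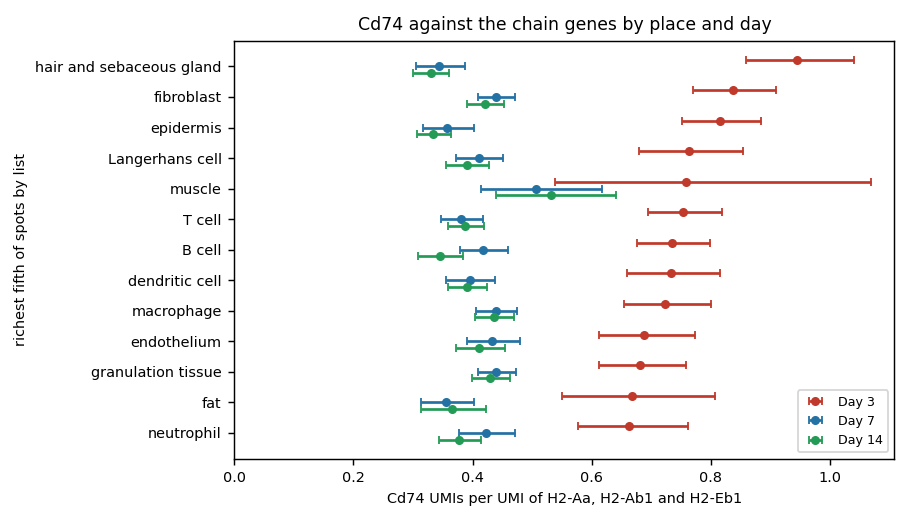
*Cd74* UMIs per UMI of *H2-Aa*, *H2-Ab1* and *H2-Eb1* (horizontal axis) in the richest 20% of spots by each marker list (vertical axis), for the 3 sections, with exact 95% intervals. Every Day 3 point, from 0.663 to 0.945, lies to the right of every point of Day 7 and Day 14, with intervals that overlap in muscle and fall apart elsewhere.

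Within the tissue the ratio also differed with place, and not in the same order on each day. On Day 14 it was 0.436 in macrophage-rich spots (0.404 to 0.470) and 0.334 in epidermis-rich spots (0.307 to 0.363), and on Day 7 it was 0.439 (0.406 to 0.475) and 0.357 (0.317 to 0.402). On Day 3 the order was turned, with 0.724 in macrophage-rich spots (0.654 to 0.800) and 0.816 in epidermis-rich spots (0.752 to 0.885), whose intervals overlapped.

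The next comparison was of the class II genes with *Lyz2*, the lysozyme gene of macrophages and neutrophils. *Lyz2* was at a log2 ratio of -0.47 (-0.54 to -0.40) on Day 7 over Day 3 and -1.49 (-1.57 to -1.41) on Day 14 over Day 7, whereas the class II sum was nearly level between Day 7 and Day 14. The summed neutrophil list measured 2196, 204 and 144 CPM over the 3 sections, and its part in these *Lyz2* values was not tested. Each *Lyz2* UMI was matched by 2.46 class II UMIs in the Day 3 section (2.35 to 2.57), by 2.09 in that of Day 7 (2.01 to 2.16) and by 6.37 in that of Day 14 (6.05 to 6.70). Day 14 was thus 3.05-fold above Day 7 (2.87 to 3.24). All 7 members are divided by the same *Lyz2* counts, whose CPM on Day 14 was 0.355-fold of that on Day 7. Their shared direction follows from that denominator and is not 7 separate observations. Per *Lyz2* UMI, the Day 14 over Day 7 ratio was 2.89-fold for *H2-Aa*, 3.39-fold for *H2-Ab1*, 3.13-fold for *H2-Eb1*, 2.89-fold for *Cd74*, 2.77-fold for *H2-DMa*, 2.85-fold for *H2-DMb1* and 3.27-fold for *Ciita* (2.13 to 5.02).

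The further macrophage references overlap, since *C1qa*, *C1qb*, *C1qc* and *Cd68* all belong to the list of 10 macrophage genes. The 3 C1q genes gave 4841 of the 6959 list UMIs on Day 7 and 2073 of 3057 on Day 14. The Day 14 excess over Day 7 was also seen with these macrophage genes as the reference. It was 2.56-fold (2.44 to 2.69) per UMI of a list of 10 macrophage genes, 2.63-fold (2.48 to 2.78) per UMI of the complement genes *C1qa*, *C1qb* and *C1qc*, and 3.78-fold (3.08 to 4.64) per UMI of *Cd68*, a lysosomal protein of macrophages. Per UMI of *Ptprc*, which encodes CD45 of all leukocytes, it was 1.08-fold (0.858 to 1.35), so that the class II sum was level against the leukocyte marker within counting error. The *Ptprc* counts behind this were 95, 150 and 157 UMIs on Day 3, Day 7 and Day 14. Between Day 3 and Day 7 the direction depended on the reference, at 0.849-fold per *Lyz2* UMI (0.802 to 0.898), 1.18-fold per macrophage-list UMI (1.12 to 1.23) and 0.649-fold per *Cd68* UMI (0.541 to 0.778). Without *Cd74* the value per *Lyz2* UMI was 1.04-fold (0.982 to 1.11).

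**Figure D3:**
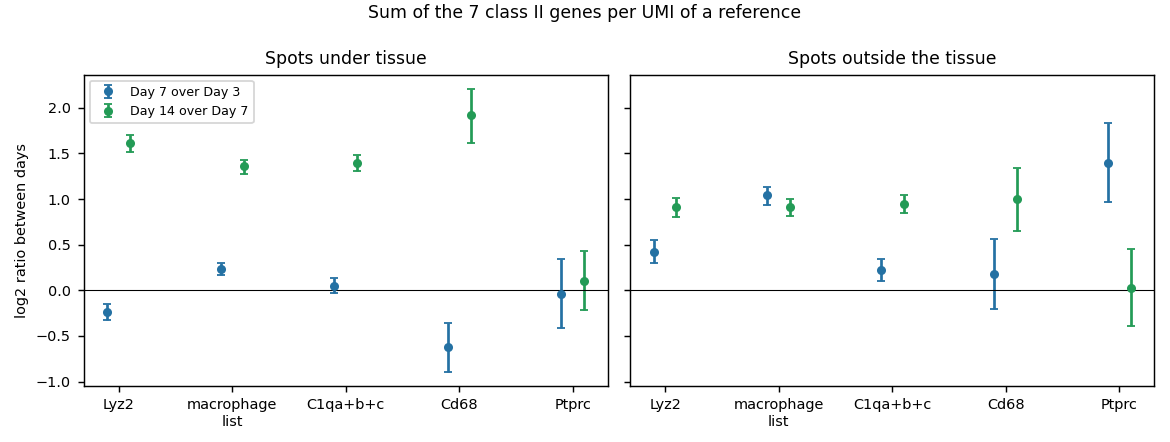
Log2 ratio between days of the class II sum per UMI of *Lyz2*, a macrophage list, the C1q genes, *Cd68* or *Ptprc*, in marked spots (left) and other spots (right), with 95% intervals from the counts. Under tissue, Day 14 over Day 7 lies between 1.36 and 1.92 for the 4 macrophage references and at 0.10 for *Ptprc*. The C1q genes and *Cd68* are also part of the macrophage list, so these references overlap.

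The markers of other class II-bearing cells were examined by list, each list counted beside the share of all genes given above. Of 10 macrophage genes, 6 were past 1.5-fold lower on Day 7 than on Day 3 and 9 on Day 14 than on Day 7, and their summed level went from 3003 to 1566 and 663 CPM. Of 10 dendritic cell genes, 7 had enough UMIs in each of the same comparisons. On Day 7 against Day 3, *Batf3*, *Ccr7* and *Ccl22* were past 1.5-fold higher and *Cd209a* and *Clec10a* past 1.5-fold lower. On Day 14 against Day 7, *Flt3*, *Itgax*, *Batf3* and *Ccl22* were lower and none was higher. The summed list measured 357, 137 and 123 CPM, and its first step was nearly all *Clec10a*, a lectin also found on macrophages, at 264, 44.6 and 41.2 CPM. *Xcr1* of cross-presenting dendritic cells had 0, 13 and 29 UMIs, and *Ccr7*, the receptor that guides dendritic cells to lymph nodes, had 18, 107 and 114. *Cd207*, the langerin of Langerhans cells, was captured by 4, 6 and 17 UMIs. Of the B cell list, *Ms4a1*, which encodes CD20, had 0, 0 and 2 UMIs, whereas *Ighm*, the heavy chain of immunoglobulin M, measured 53.6, 46.6 and 51.8 CPM. The summed B cell list measured 61.5, 56.3 and 59.2 CPM, most of it *Ighm*. T cell genes, which class II molecules address, stood out on Day 14, where 6 of the 7 with enough UMIs were past 1.5-fold higher than on Day 7, and their summed level went from 43.4 to 55.6 and 105 CPM. How much of the class II signal each cell type gave was not tested.

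Among the rest of the class II pathway, the genes of antigen processing were lower on Day 14 than on Day 7. Of 16 further genes 13 were in the matrices and 9 had enough UMIs, and 5 of these were past 1.5-fold lower on Day 14 than on Day 7 (15.3% of all genes were), with a median log2 ratio of -0.65 beside 0.04 for the members and 0.12 for all genes. These 5 were the proteases and the reductase that process antigen and invariant chain. *Ctss*, cathepsin S, which makes the last cuts in the invariant chain, measured 331, 194 and 94.5 CPM from the first to the last day. *Lgmn*, the asparagine-specific endopeptidase, was at 445, 404 and 102 CPM, and *Ifi30*, the lysosomal thiol reductase GILT, at 115, 109 and 69.6 CPM. *Ctsl* and *Ctsb*, cathepsins L and B, were also lower on each later day, with Day 14 over Day 7 ratios of -0.74 (-0.84 to -0.63) and -1.18 (-1.23 to -1.13). Macrophages are known to express these genes, the macrophage list was lower on the same days, and its part in these values was not tested.

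The promoter-binding factors and the surface turnover gene of the pathway were low. *Rfxank*, a subunit of the factor that binds the X box, was the only further pathway gene past 1.5-fold higher on Day 14 than on Day 7. Over all genes, 23.4% were past 1.5-fold higher there. *Rfxank* was at 12.4, 15.1 and 23.4 CPM on the 3 days, with a log2 ratio of 0.64 (0.18 to 1.10). Its partners *Rfx5* (16.9, 13.7 and 15.6 CPM) and *Rfxap* (29.3, 24.3 and 26.0 CPM) were not past 1.5-fold in any comparison. *March1*, a ubiquitin ligase that removes class II from the surface, had too few UMIs to be counted, with 23, 18 and 9, which is 13.0 CPM in the first section (8.23 to 19.5) and 1.95 CPM in the last (0.892 to 3.70). *H2-Oa* and *H2-Ob*, the chains of the H2-DM inhibitor H2-O, stayed at or below 22 UMIs in every section.

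Costimulatory genes, which accompany class II in T cell activation, were sparse. Of 7, 4 had enough UMIs on Day 7 against Day 3, and *Cd86* and *Icosl* of these were past 1.5-fold lower, as were 15.5% of all genes. None of the 5 with enough UMIs on Day 14 against Day 7 was past 1.5-fold, where 23.4% of all genes were higher and 15.3% lower. *Cd86* measured 16.9, 10.4 and 11.5 CPM over the 3 sections, with overlapping intervals throughout. *Cd80* had 10 and 11 UMIs on Day 3 and Day 7 and none on Day 14, which allows up to 0.80 CPM by the exact Poisson limit.

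The class I pathway, which presents peptides of the cell itself, was compared because it shares inducers with class II. *H2-K1* was at 2537, 1760 and 2362 CPM, *H2-D1* at 816, 673 and 631 CPM and *B2m* at 1492, 1120 and 1155 CPM in the order of the days, so that these class I genes were also highest on Day 3. Of the 12 class I genes, *Nlrc5*, the class I counterpart of *Ciita*, was the single one past 1.5-fold higher on Day 14 than on Day 7. It was at 14.7, 12.6 and 33.0 CPM, with a log2 ratio of 1.39 (0.94 to 1.86). Over all genes, 23.4% were past 1.5-fold higher in that comparison. *Tap2*, a subunit of the peptide transporter, was past 1.5-fold higher on Day 7 than on Day 3, as were 19.5% of all genes. It was at 29.3, 52.2 and 68.5 CPM on the 3 days.

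Interferon gamma, the main inducer of *Ciita*, was at the limit of detection, with 0, 1 and 8 UMIs of *Ifng* on Day 3, Day 7 and Day 14. Of the 11 genes of its pathway with enough UMIs, 5 were past 1.5-fold higher on Day 14 than on Day 3, and *Ifngr1* was lower. Over all genes, 28.4% were higher and 14.3% lower in that comparison. *Cxcl9* measured 5.08 CPM (2.32 to 9.64), 7.88 CPM (5.49 to 11.0) and 16.9 CPM (13.4 to 21.1) from Day 3 to Day 14, and *Cxcl10* 5.64, 7.65 and 17.1 CPM. Both chemokines were past 1.5-fold higher on Day 14 than on Day 7, as were 23.4% of all genes. *Irf1* was past 1.5-fold higher on Day 7 than on Day 3, at 46.3, 84.4 and 73.3 CPM. The receptor gene *Ifngr1* showed the reverse, at 397, 114 and 135 CPM. The class II sum was highest in the Day 3 section, where *Cxcl9*, *Cxcl10* and *Irf1* had their lowest values and *Ifngr1* its highest. The Day 3 and Day 7 intervals of *Cxcl9* overlapped, and the part of interferon gamma in the class II values was not tested.

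The place of the class II genes in each section was then described. They were found in nearly all spots of the deeper sections, with at least 1 UMI of the sum in 65.4%, 95.4% and 94.8% of marked spots in the order of the days. After thinning every spot to 1000 UMIs, which left out 238, 24 and 18 shallower spots, the shares were 74.4%, 83.2% and 80.0%. The UMIs were spread unevenly, most of all on Day 3. The median marked spot held 2, 13 and 10 class II UMIs on the 3 days and the highest 161, 159 and 206. The richest 10% of spots held 62.1%, 34.2% and 36.8% of class II UMIs over the 3 sections, where the deepest 10% held 40.4%, 26.3% and 28.2% of all UMIs.

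**Figure D4:**
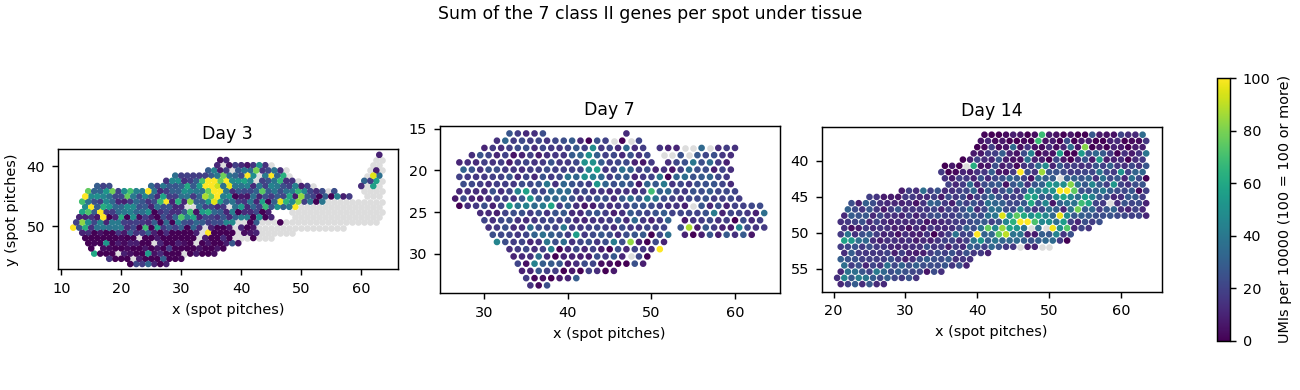
Class II UMIs per 10000 UMIs in each marked spot of the 3 sections, in array coordinates (spot pitches), with the colour scale ending at 100 and spots under 500 UMIs in grey. Rich spots lie in the upper part of the Day 3 section and right of the centre on Day 14, while the Day 7 section is more even (Moran's I of 0.549, 0.394 and 0.163).

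Moran's I, which is near 0 for values scattered at random over the spots and near 1 for values that gather, was 0.549, 0.163 and 0.394 for the class II sum in the order of the days. A sum over 7 genes carries less counting noise than 1 gene, so only the single members were set beside other genes. The median gene with at least 100 UMIs was at 0.102, 0.037 and 0.042, and the 90th percentile at 0.268, 0.130 and 0.140. *H2-Aa* (0.385, 0.160 and 0.300), *H2-Eb1* (0.306, 0.178 and 0.260) and *Cd74* (0.459, 0.173 and 0.278) lay above that percentile in each section. *H2-Ab1* (0.422, 0.102 and 0.253) did so on Day 3 and Day 14 but not on Day 7. *H2-DMa* and *H2-DMb1* lay below it throughout, *H2-DMb1* narrowly on Day 14 at 0.139. Both rest on fewer UMIs and so carry more counting noise. *Ciita*, with 11, 39 and 47 UMIs, did not reach the minimum of 100 and was not compared. *Lyz2* was at 0.411, 0.259 and 0.169. After thinning to 1000 UMIs, 599, 732 and 973 genes still had 100 UMIs, against 3083, 6705 and 7414 before. The 90th percentile of these was 0.325, 0.123 and 0.138, over a different set of genes. *H2-Aa*, *H2-Ab1*, *H2-Eb1* and *Cd74*, the members with 100 or more UMIs after thinning, lay below it in each section. Their highest values were 0.286 for *H2-Ab1* on Day 3, 0.052 for *Cd74* on Day 7 and 0.10 for *Cd74* on Day 14. The thinned sum was at 0.427, 0.058 and 0.239. Across spots, *H2-Aa*, *H2-Ab1*, *H2-Eb1* and *Cd74* went together with Pearson r of 0.430 to 0.583 on Day 3, 0.215 to 0.362 on Day 7 and 0.410 to 0.498 on Day 14. These r share the depth of the spots, and after thinning they were 0.249 to 0.398, -0.027 to 0.136 and 0.107 to 0.199.

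Spots were ranked by marker lists that hold no member, and the richest 20% by each list were set against the other spots with at least 500 UMIs. The class II sum was higher in macrophage-rich spots in every section, at 6350 against 3213 CPM on Day 3, 2739 against 2070 CPM on Day 7 and 4586 against 2015 CPM on Day 14. The log2 ratios were 0.98 (0.90 to 1.06), 0.40 (0.34 to 0.47) and 1.19 (1.13 to 1.24). With spots thinned to 1000 UMIs they were 1.02, 0.15 (-0.06 to 0.36) and 0.41 (0.25 to 0.58). The spots were then ranked anew on the thinned counts of the list, which are few per spot. These values cannot separate equal depth from a poorer ranking, and no conclusion on Day 7 is drawn from them. Without thinning, the other spots held close levels of the class II sum on Day 7 and Day 14, at 2070 and 2015 CPM. These spots still held *Lyz2*, at 819 and 300 CPM, and which cells gave their class II signal was not tested.

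On Day 14 class II was also higher in the spots rich in the fibroblast and granulation tissue lists. The sum was at 4084 against 2043 CPM for the fibroblast list, a log2 ratio of 1.0 (0.94 to 1.06), and at 4138 against 2051 CPM for the granulation tissue list, 1.01 (0.95 to 1.07). On Day 3 the same lists gave 0.40 and 0.15, and on Day 7 0.29 and 0.17. *Lyz2* itself was 1.91-fold and 2.25-fold higher in these 2 sets of spots on Day 14. Dendritic cell-rich spots gave 0.57, 0.14 and 0.70 on Day 3, Day 7 and Day 14, and T cell-rich spots 0.42, 0.13 and 0.50. On Day 3, 49 of the 104 T cell-rich spots had no UMI of the list, which was too sparse there to rank spots.

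The lowest class II levels lay in muscle. Muscle-rich spots held 866 against 3995 CPM on Day 3, a log2 ratio of -2.21 (-2.45 to -1.97), 1781 against 2275 CPM on Day 7, -0.35 (-0.49 to -0.22), and 1273 against 2546 CPM on Day 14, -1.0 (-1.13 to -0.87). Fat-rich spots were also lower in each section. Epidermis-rich spots measured 3933, 1932 and 2257 CPM over the 3 sections, with log2 ratios to the other spots of 0.15, -0.26 and -0.15. The epidermis, home of Langerhans cells, thus did not stand out. Per *Lyz2* UMI, however, the spots richest in epidermis genes had the highest class II value in all 3 sections. On Day 14 there were 10.3 per *Lyz2* UMI (8.73 to 12.2) in the richest 10% of spots by epidermis genes and 7.26, 5.80, 5.63 and 4.08 at up to 2, 2 to 5, 5 to 10 and more than 10 pitches from them. Day 7 gave 3.19, 2.78, 2.01, 1.62 and 2.09 in the same order, lower with distance up to 10 pitches. Day 3 gave 3.82, 2.06, 2.91, 2.09 and 0.579, with no steady order and the last from 11 class II UMIs. *Lyz2* itself was lowest in the epidermis spots on Day 7, at 599 CPM, and on Day 14, at 203 CPM.

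**Figure D5:**
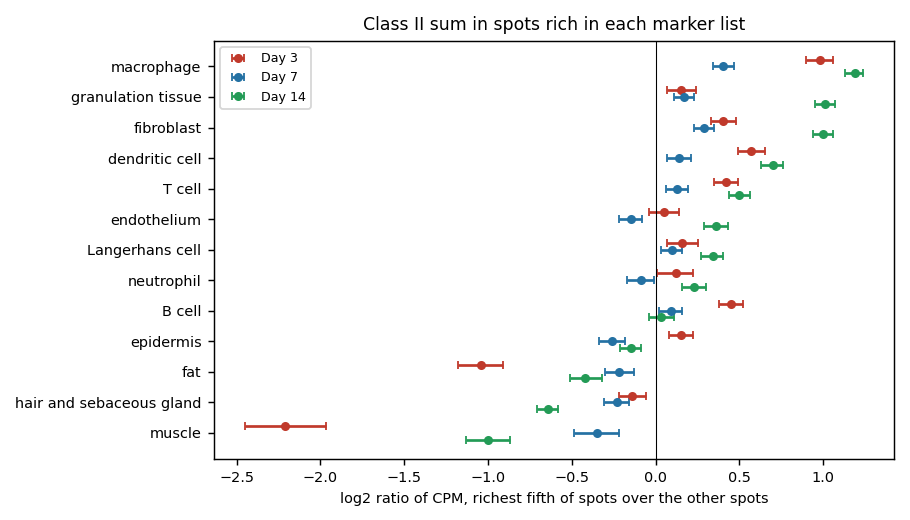
Log2 ratio of class II CPM in the richest 20% of marked spots by each marker list over the other spots with at least 500 UMIs, for the 3 sections, with exact 95% intervals. The macrophage list lies highest (0.98 on Day 3, 0.40 on Day 7 and 1.19 on Day 14) and the muscle list lowest (-2.21, -0.35 and -1.0).

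Each section was divided into 5 regions by k-means, and regions are called by their leading genes. Left out were the members and the lists of class II pathway, costimulation, macrophage, dendritic cell, Langerhans cell, B cell and T cell genes. *Lyz2* and the neutrophil, class I and interferon gamma lists were not left out. On Day 3 the region led by *Cxcl5* and *Timp1* (109 spots), genes of inflamed and remodelling tissue, had the highest class II sum, at 5344 CPM (5137 to 5558). The region led by *Aldh3a1*, *Cidea* and *Defb8* (118 spots) followed at 4086 CPM (3947 to 4229), and that led by *Tnnt1*, *Myl2* and *Trim54* (180 spots), which are muscle genes, was at 792 CPM (699 to 894). All 7 members had their highest level in 1 of the first 2 of these regions, although for *Cd74*, *H2-DMa*, *H2-DMb1* and *Ciita* the intervals of these 2 regions overlapped. The region of 108 shallow spots led by *Fdx2*, *Lars2* and *Hba-a1* held 6 class II UMIs in all, too few to place it. The region with the most macrophage-list signal was another one, led by *Pi16* and *Gda* (149 spots), with 4843 CPM of that list and 2754 CPM of class II. *Lyz2*, like class II, was highest in the *Cxcl5* region, at 2639 CPM, and so was the neutrophil list, at 3957 CPM. The *Cxcl5* region had the next highest level of the macrophage list, at 4263 CPM. The log2 ratio of class II in the region richest in that list over the rest was -0.45 (-0.59 to -0.31), and it was -0.12 with 4 regions, -0.23 with 6 and -0.15 with Ward clustering.

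On Day 7 the 4 regions with more than 10 spots lay between 1742 and 2513 CPM. The highest was the region led by *Isg15*, *Cmtm7* and *Rpl35* (102 spots), which also had the most macrophage-list signal and the most granulation tissue-list signal, at 13356 CPM. It held 1.53 class II UMIs per *Lyz2* UMI (1.45 to 1.60), fewer than the 2.80 (2.66 to 2.96) of the largest region, led by *Serpinb5*, *Serpina3b* and *Serpina3j* (267 spots). On Day 14 the region led by *Mmp14* and *Ccn3* (250 spots) stood at 3620 CPM (3512 to 3731), and all other regions lay between 1287 and 2159 CPM. It held 48 of the 69 spots of the richest 10% by class II CPM, with 36.3% of the spots ranked. Its macrophage-list level of 1058 CPM was the highest of that section. The region led by *Stfa3*, *Cstdc5* and *Gm94* (45 spots), with 38872 CPM of epidermis genes, was at 2082 CPM of class II and 11.1 class II UMIs per *Lyz2* UMI (9.03 to 13.8), against 5.73 (5.30 to 6.21) in the first region.

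The genes most like the class II sum across spots were named by the mean Pearson r over the 3 sections, among 2971 genes with at least 100 UMIs in each. They were *Col1a2* (mean r 0.564), *Col1a1* (0.549), *Apoe* (0.505), *Actb* (0.495), *Col3a1* (0.493), *Sparc* (0.482), *H2-K1* (0.477), *H2-D1* (0.470), *Bgn* (0.446) and *Serpinh1* (0.444). Of these, 6 are collagen or matrix-related genes and 2 are class I heavy chains, whereas *Apoe* is a lipid carrier that macrophages also express. *Lyz2* came in place 12, *B2m* in place 17 and *C1qb* in place 26. All are abundant genes, and r across spots rests on shared depth, with median r over all ranked genes of 0.20, 0.112 and 0.119 on Day 3, Day 7 and Day 14. With spots thinned to 1000 UMIs, 7 of the 10 genes were again among the first 10, and *Col1a1* led with r of 0.552, 0.217 and 0.453.

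Outside the marked tissue the class II sum was lower per UMI captured in each section, with 1346 CPM (1291 to 1402), 1224 CPM (1197 to 1252) and 1389 CPM (1356 to 1423) from Day 3 to Day 14. That was 0.368-fold, 0.545-fold and 0.571-fold of the level under tissue, and the 3 sections lay closer to each other outside than under it. Of all class II UMIs of a slide, 26.1%, 44.2% and 36.9% lay outside. The fold ran from 0.282 to 0.589 for the members other than *Ciita*, which was at 1.01-fold on Day 7 from 39 UMIs under and 57 outside. Muscle-list signal was higher outside, at 84708, 120196 and 131104 CPM against 39853, 54811 and 62309 CPM under tissue. On Day 7 and Day 14 the sum was lower the farther the spots lay from the marked tissue, from 1676 CPM within 1.5 pitches to 972 CPM beyond 10 pitches on Day 7 and from 1882 to 1178 CPM on Day 14. On Day 3 it was at 3216 CPM (2981 to 3465) within 1.5 pitches and between 968 and 1190 CPM beyond. Of the 694 class II UMIs within 1.5 pitches on Day 3, 240 came from 1 spot, described further below, so that this value leans on it. Per *Lyz2* UMI, the outside spots had 2.08, 2.79 and 5.24 class II UMIs, so that Day 14 was highest there as well, 1.88-fold above Day 7 (1.74 to 2.02).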

How the data were processed

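Visium libraries of 3 mouse wound sections, 1 per day, were sequenced and run by the authors through Space Ranger 1.3.0 against mm10, per the submitters' notes. The deposited matrices hold raw UMI counts of 32285 genes in 4992 spots per slide, not normalized, with positions and a mark for spots of tissue. The gene annotation used is not given in the sources used here. No spot was excluded from pooled values.

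Pooled CPM was the UMIs of a gene per 1000000 UMIs of its set of spots, and the sections held 1772259 to 4611723 UMIs under tissue. Exact Poisson 95% intervals were computed for CPM and exact conditional binomial intervals for ratios of counts. They cover counting error only, since spots are not replicates and no second section exists for any day. A gene was called past 1.5-fold by size alone, with at least 50 UMIs over the 2 sections compared.

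Spots with at least 500 UMIs were ranked by marker-list CPM, and the richest 20% were compared with the rest. Regions came from k-means (5 regions, 20 principal components, 2000 variable genes) without the members and the lists named with the regions (72 genes in all). Moran's I used log1p UMIs per 10000. Thinning drew 1000 UMIs per spot. Python 3.11.15, R 4.3.3, edgeR 4.0.16 (TMM factors only) and DESeq2 1.42.0 (size factors only) were used, and the exact interval for ratios was tested on simulated data.

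The genes named are all 7 members, genes of the pathway lists, marker genes that stand beside a result, the 10 genes most like the class II sum and the leading genes of each region. A few genes that this rule selects are left unnamed. The members and lists were chosen with earlier results of these data known. Alternatives covered spot weighting, normalization, the reference gene, the spots used, clustering and the gene minimum.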

Additional observations from a re-analysis of the deposited data

Results flagged for a closer look

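In the Day 3 section the spot with the most class II UMIs lay outside the marked tissue. It held 240 UMIs of the 7 genes, above the 161 of the highest marked spot and the upper limit of 187 that counting error allows that spot, and it was the 1 outside spot above that limit. It lay 1 pitch from the marked tissue and held 10518 UMIs in all and 40 of *Lyz2*, which gives 22818 CPM of class II. On Day 7 and Day 14 the highest outside spots held 105 and 85 class II UMIs, at 20.8 and 15.6 pitches from the marked tissue, below the 159 and 206 of the highest marked spots. In CPM these spots were at 4916 and 28495, the latter above the Day 3 spot and resting on 2983 UMIs in all and 6 of *Lyz2*. What these spots cover was not tested.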

How the results depend on the processing

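With 1 section per day, no replicate could be left out, and no paired analysis was possible because each day had 1 section. Depth limits *Ciita*, *March1*, *Ifng* and the costimulatory genes most, and the Day 3 section throughout. Alternatives are log2 ratios unless stated, and where a value changed the cause was not tested. For the class II sum, Day 7 over Day 3 (-0.71) became -0.23 as a mean of spot CPM, -0.62 over all spots and -0.41 without *Cd74*. Day 14 over Day 7 (0.12) became -0.01 with TMM and -0.01 with DESeq2 size factors, which turned its direction, 0.22 over all spots and 0.16 without mitochondrial, haemoglobin and muscle genes. Day 14 over Day 3 (-0.59) became -0.08 as a spot mean, -0.74 with TMM, -0.76 with DESeq2, -0.41 over all spots and -0.26 without *Cd74*.

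Per *Lyz2* UMI, Day 7 over Day 3 (-0.24) turned to 0.23 per macrophage-list UMI, 0.05 per C1q UMI, 0.00 over all spots and 0.06 without *Cd74*, and was -0.62 per *Cd68* UMI. Day 14 over Day 7 (1.61) kept its direction at 1.36 per list, 1.39 per C1q, 1.92 per *Cd68* and 1.33 over all spots, and Day 14 over Day 3 (1.37) was 1.59 per list and 1.70 without *Cd74*. Outside over under tissue on Day 3 (-1.44) became -1.15 within 5 pitches, -1.62 from 10 pitches, -0.83 as a spot mean and -0.24 per *Lyz2*. On Day 7 (-0.87) the same settings gave -0.43, -1.21, -0.75 and 0.42, the last turning its direction, and on Day 14 (-0.81) they gave -0.53, -1.05, -0.66 and -0.28.

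In macrophage-rich spots, Day 3 (0.98) was 1.24 with *Lyz2* alone, Day 7 (0.40) was 0.52 in the richest 10% and 0.15 after thinning, and Day 14 (1.19) was 1.38 and 0.41. The region contrast was -0.12, -0.23 and -0.15 on Day 3 with 4 regions, 6 regions and Ward clustering (-0.45 with 5), and 0.68 on Day 14 with Ward clustering (0.84). Moran's I after thinning was 0.058 on Day 7 and 0.239 on Day 14 (0.163 and 0.394). Over all genes, those past 1.5-fold higher on Day 7 than Day 3 numbered 2060, against 3195 with a minimum of 1 UMI and 892 with 200 UMIs, and those lower 1638, against 3269 and 736. From Day 7 to Day 14, 2748 higher became 1433 with 200 UMIs, and 1802 lower became 3014 and 1012. From Day 3 to Day 14, 3111 higher became 1399 with 200 UMIs, and 1571 lower became 3081 and 757.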
